A study of Mus musculus with 12 samples.

Results

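The comparison described here is that of C2C12 myotubes exposed to hydrogen peroxide (H2O2) with myotubes given vehicle, taken over all genes measured. Its members are the 6 libraries whose labels read H2O2 or vehicle, 3 of each, of the 12 libraries in the study. C2C12 is an established line of mouse myoblasts which, when serum is lowered, leave the cell cycle and fuse into multinucleated myotubes. The growth protocol gives 5 days in 2% horse serum before treatment, although the cell-type tag of every library reads myoblasts. The vehicle libraries came from cultures kept in 0.02% DMSO for 24 h, and the H2O2 libraries from cultures kept in vehicle for 18 h and then in 0.25 mM H2O2 for 6 h. The remaining libraries came from cultures given 10 µM ginsenoside Rc (gRc), a triterpene saponin of ginseng, alone for 24 h or before the same 6 h of H2O2, and all groups shared the DMSO solvent. Where gRc preceded H2O2, the description gives 18 h of gRc and a tag gives 24 h. All libraries came from a single cell line, and the labels do not say whether replicates were separate cultures or whether the medium of the vehicle cultures was handled at 18 h as that of the H2O2 cultures was.

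H2O2 is a small oxidant that crosses membranes and oxidises cysteine thiols in proteins as well as DNA and lipids. Cells remove it with peroxiredoxins, glutathione peroxidases and catalase, and they answer it with several transcriptional programs. Oxidation of KEAP1 releases NRF2, which induces glutathione synthesis and detoxification genes. Kinases that phosphorylate the initiation factor eIF2 slow general translation while ATF4 is made, and ATF4 then induces amino acid transporters and stress factors (the integrated stress response). DNA damage stabilises p53. In muscle, the myogenic factors of the MyoD family drive the contractile genes, and oxidants are known as a stimulus of muscle wasting.

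RNA was selected by poly(A) tails and sequenced as paired ends, and the values are RSEM expected counts, with totals from 19274762 to 31409066 per library. Of 48795 genes listed, 14838 had enough counts to be tested. Levels are given in CPM (counts per 1000000 of the library total after TMM scaling), in the order of replicates 1, 2 and 3. Differences were tested by the quasi-likelihood method of edgeR, fitted to all 12 libraries, and p-values were adjusted over all 14838 genes by the Benjamini-Hochberg method, with 0.05 as the threshold. A number in parentheses after a gene, or called its value, is its log2 fold change of H2O2 against vehicle. Genes of differentiated muscle were abundant in both groups: 10 myotube markers summed to between 14950 and 17950 CPM with vehicle and between 12820 and 15960 CPM with H2O2, and 0 of them passed the test. Of 5 genes of undifferentiated myoblasts and reserve cells, 2 fell, and the sum of 4 fibroblast markers ran from 1171 to 9677 CPM with vehicle and from 1426 to 3172 CPM with H2O2. Markers of adipocytes and endothelium had too few counts to be tested. In bulk RNA, fewer cells of a type and less RNA per cell cannot be told apart.

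The vehicle libraries were less alike than the H2O2 libraries. In a principal component analysis of all 12 libraries, the leading component (42.0% of the variance) placed vehicle replicate 1 at -74.0 and vehicle replicate 3 at 86.2, beside gRc replicate 3 at 87.8. The next component (30.8%) separated the 6 libraries with H2O2, all below 0, from the 6 without, all above 0. The genes poorest in GC, set against the richest, stood at -0.93 (log2) in vehicle replicate 1 and 0.43 in vehicle replicate 3. Counts are therefore also given with 1 library left out, where they differ most. A fit without vehicle replicates 1 and 3 and gRc replicate 3 holds 1 vehicle library, so its counts of calls are not given.

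After 6 h of H2O2, 1159 genes rose (7.81% of those tested) and 1164 fell (7.84%), together 15.7%. The median size of a called rise was 0.94 and that of a called fall -0.96 on the log2 scale. Both directions held 531 genes that changed at least 2-fold, but large changes were mostly rises: 141 genes rose and 67 fell at least 4-fold, and 54 rose and 6 fell at least 8-fold. All 3 H2O2 libraries lay above all 3 vehicle libraries for 2352 genes (15.9%) and below them for 2257 (15.2%), and 1157 of the genes that rose and 1151 of those that fell were among these. Without vehicle replicates 1 and 3 and gRc replicate 3, the log2 fold changes of 2320 of the 2323 genes kept their direction. With a correction for GC content, 1338 rose and 1051 fell, and 1961 of the 2323 were called again in the same direction. With a single H2O2 library left out (replicate 1, 2 or 3), 1412, 1353 and 1267 genes were called, and without any other single library the count stayed within 1.5 times of 2323. With upper-quartile scaling, which moved the median of all genes by -0.104 to -0.160, the split was 897 rises and 1607 falls, and no gene called here changed direction.

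**Figure D1:**
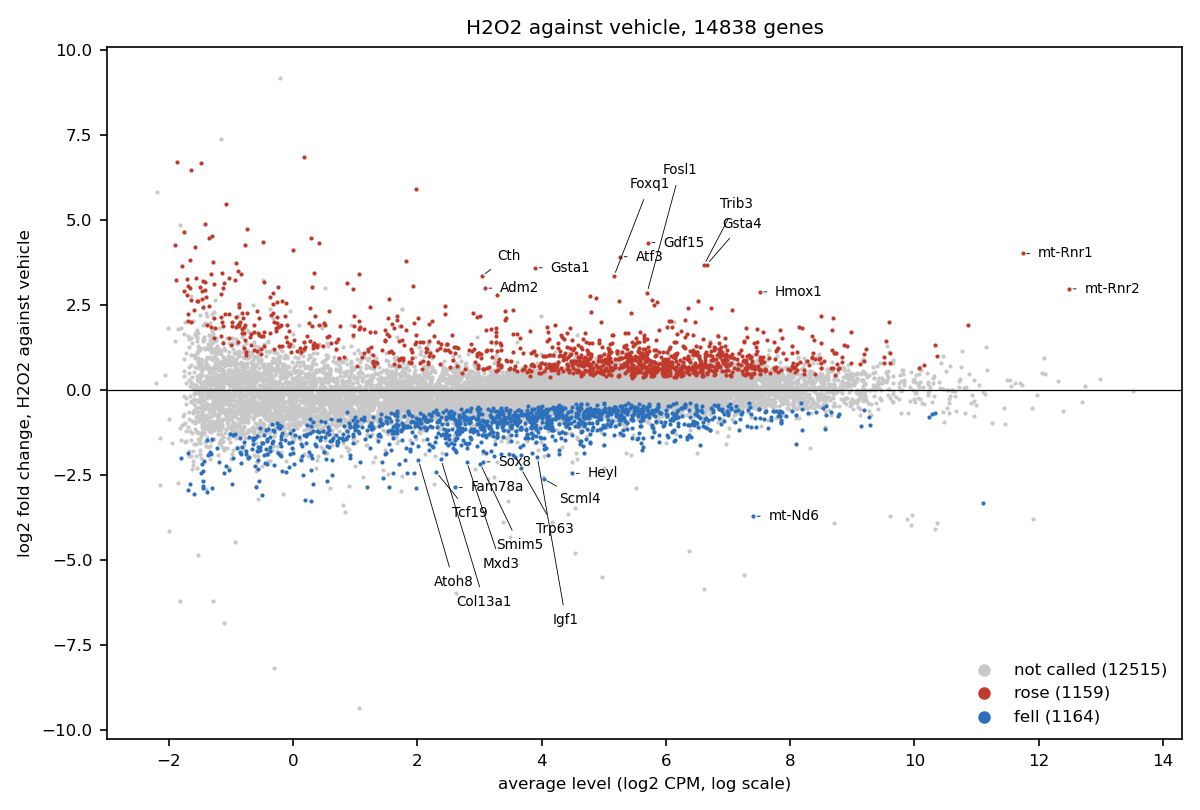
Log2 fold change of H2O2 against vehicle (y axis) against the average level in log2 CPM (x axis, log scale) for the 14838 genes tested, with genes that rose in red, genes that fell in blue and all others in grey. The 12 largest rises and 12 largest falls above an average log2 CPM of 2 are labelled, and they reach 4.33 upwards (Gdf15) and -3.71 downwards (mt-Nd6).

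Gdf15, which encodes a secreted stress hormone, had the largest rise among genes above an average of 2 on the log2 CPM scale whose groups were separate. It stood at 4.44, 5.05 and 5.35 CPM with vehicle and 111, 92.8 and 96.3 CPM with H2O2 (log2 fold change 4.33, SE 0.15, adjusted p = 2.03e-07 from edgeR). Atf3, a bZIP factor induced by stress, stood at 4.33, 5.26 and 4.53 CPM with vehicle and 73.5, 67.5 and 72.5 CPM with H2O2 (log2 fold change 3.92, SE 0.20, adjusted p = 3.20e-06 from edgeR). In both genes the replicates of a group lay within a narrow range and the groups were far apart. Glutathione S-transferases, which couple glutathione to reactive compounds, followed, with Gsta4 at 20.3, 16.4 and 11.1 CPM with vehicle and 257, 172 and 183 CPM with H2O2 (log2 fold change 3.68, SE 0.35, adjusted p = 0.000145 from edgeR). Gsta1 stood at 2.11, 2.21 and 2.43 CPM with vehicle and 26.9, 25.9 and 28.7 CPM with H2O2 (log2 fold change 3.59, SE 0.15, adjusted p = 4.17e-07 from edgeR). The reads of this family are divided among similar copies, so the share of each copy is uncertain. Trib3, a pseudokinase gene induced by ATF4 and CHOP, stood at 28.4, 12.1 and 9.99 CPM with vehicle and 265, 155 and 219.7 CPM with H2O2 (log2 fold change 3.67, SE 0.43, adjusted p = 0.000416 from edgeR), with vehicle replicate 1 above the other vehicle libraries. Cth makes cysteine from cystathionine and stood at 1.44, 1.07 and 1.61 CPM with vehicle and 14.7, 14.4 and 12.7 CPM with H2O2 (log2 fold change 3.34, SE 0.23, adjusted p = 1.52e-05 from edgeR). The forkhead gene Foxq1 stood at 6.82, 5.64 and 6.03 CPM with vehicle and 50.7, 64.9 and 71.5 CPM with H2O2 (log2 fold change 3.34, SE 0.20, adjusted p = 6.52e-06 from edgeR), with every H2O2 library above every vehicle library. Adm2, which encodes the vasoactive peptide intermedin, changed by 2.99 (SE 0.40), the heme oxygenase gene Hmox1 by 2.88 (SE 0.40) and the AP-1 gene Fosl1 by 2.86 (SE 0.26). On GRCm38 with the GENCODE annotation, Gsta1 lies on chromosome 9 from 78230656 to 78242684, Gsta4 on chromosome 9 from 78182774 to 78209349, Cth on chromosome 3 from 157894248 to 157925077 and Foxq1 on chromosome 13 from 31556134 to 31560976.

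The largest of the 12 falls, in mt-Nd6, is given with the other mitochondrial transcripts. Scml4, a Polycomb-group gene, stood at 29.5, 28.4 and 27.3 CPM with vehicle and 4.19, 4.31 and 5.38 CPM with H2O2 (log2 fold change -2.62, SE 0.15, adjusted p = 6.52e-06 from edgeR). Fam78a, whose product has no settled role, stood at 9.71, 9.27 and 11.9 CPM with vehicle and 1.31, 1.46 and 1.45 CPM with H2O2 (log2 fold change -2.87, SE 0.27, adjusted p = 0.000131 from edgeR). Heyl, a transcriptional repressor induced by Notch, stood at 27.9, 34.3 and 46.9 CPM with vehicle and 5.69, 6.48 and 7.74 CPM with H2O2 (log2 fold change -2.45, SE 0.28, adjusted p = 0.000333 from edgeR). In all of these genes the groups did not overlap, and the vehicle libraries of Heyl spread the most. Other transcription factors among the largest falls were Sox8 (-2.12), Atoh8 (-2.05), Trp63 (-2.30), Tcf19 (-2.42) and the MAX-binding repressor Mxd3 (-2.11). Igf1, the growth factor that drives muscle growth, stood at 20.2, 22.6 and 26.7 CPM with vehicle and 5.13, 6.75 and 5.83 CPM with H2O2 (log2 fold change -1.97, SE 0.19, adjusted p = 0.000145 from edgeR). The transmembrane collagen gene Col13a1 changed by -2.04 (SE 0.50) and Smim5 by -2.17 (SE 0.31). Scml4 lies on chromosome 10 from 42860370 to 42960780, Heyl on chromosome 4 from 123233556 to 123249875, Sox8 on chromosome 17 from 25565892 to 25570686 and Igf1 on chromosome 10 from 87858265 to 87937042.

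**Figure D2:**
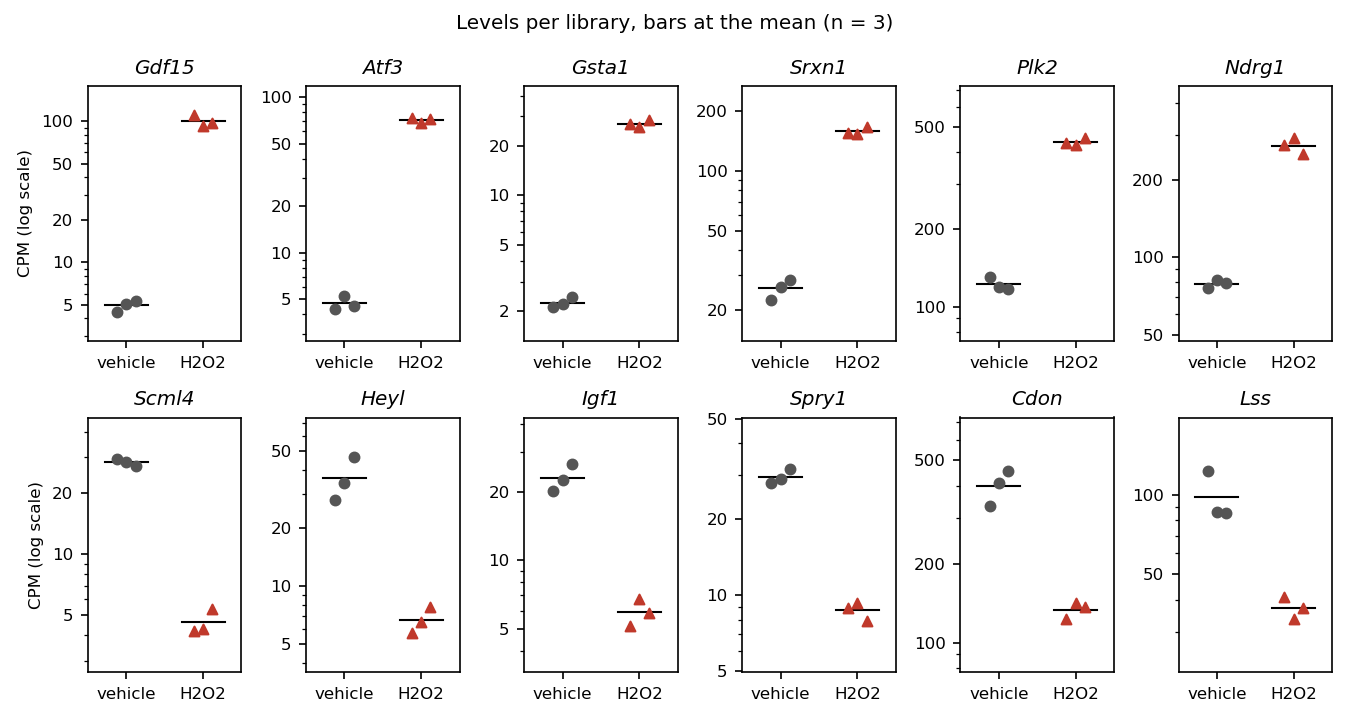
TMM-normalized CPM (y axis, log scale) of 12 genes in the 3 vehicle libraries (circles) and the 3 H2O2 libraries (triangles), with a horizontal bar at each group's mean. In each panel the groups do not overlap, with rises in Gdf15, Atf3, Gsta1, Srxn1, Plk2 and Ndrg1 and falls in Scml4, Heyl, Igf1, Spry1, Cdon and Lss.

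By mean CPM, the largest rises were those of the mitochondrial rRNAs mt-Rnr2 and mt-Rnr1, which are given with the mitochondrial transcripts. Sqstm1, whose product p62 carries ubiquitinated cargo to autophagosomes and binds KEAP1, stood at 773, 1009 and 632 CPM with vehicle and 2812, 2950.4 and 3207 CPM with H2O2 (log2 fold change 1.89, SE 0.23, adjusted p = 0.000564 from edgeR). The DNA damage gene Gadd45a stood at 376, 421 and 204 CPM with vehicle and 1398, 1078 and 1538 CPM with H2O2 (log2 fold change 2.003, SE 0.39, adjusted p = 0.00688 from edgeR). Pabpc1, the cytoplasmic poly(A)-binding protein, changed by 0.995 (SE 0.25), and the mitochondrial chaperone gene Hspa9 changed by 1.32 (SE 0.28). Among abundant genes that fell, the fatty acid desaturase Scd2 stood at 1948, 1478 and 1269.6 CPM with vehicle and 893, 943 and 880.1 CPM with H2O2 (log2 fold change -0.79, SE 0.17, adjusted p = 0.00981 from edgeR). The taurine transporter Slc6a6 changed by -1.07 (SE 0.22), the giant thin-filament protein gene Neb by -1.03 (SE 0.29), the matrix genes Thbs1 by -0.68 (SE 0.19) and Hspg2 by -0.70 (SE 0.18). The pseudogene Gm28661, a nuclear copy of mitochondrial sequence that shares reads with the mitochondrial genome, changed by -3.33 (SE 0.97) and is uncertain for that reason.

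Genes were then described in 49 lists of pathways and cell functions, which hold 1241 of the tested genes and 327 of the called ones; a gene can stand in more than one list. Of 30 list counts of 1 to 3 genes, 24 moved by over 1.5 times with at least 1 library left out. Among list members named below, Acly, Bid, Hey1 and Skil lost their calls for 10 of the 12 libraries left out in turn. Atf6, Fgf21, Fzd1, Gabarapl1, Igf1r, Il15, Klf6, Lmod2, Mxd1, Myh4, Myod1 and Tgfb2 lost theirs for 9. The lists with the largest share of rises were the integrated stress response, amino acid supply, small nucleolar RNA hosts, ribosome biogenesis, NRF2 and p53. Cholesterol synthesis had the largest share of falls. With only the 6 libraries compared in the fit, rises numbered 12 in the integrated stress response, 10 in amino acid supply and 7 in small nucleolar RNA hosts. They numbered 16 in ribosome biogenesis, 13 in NRF2 and 15 in p53, and falls in cholesterol synthesis numbered 10. In that fit 0 genes were called in the lists of myosins, sarcomere, neuromuscular junction and TGF-beta.

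**Figure D3:**
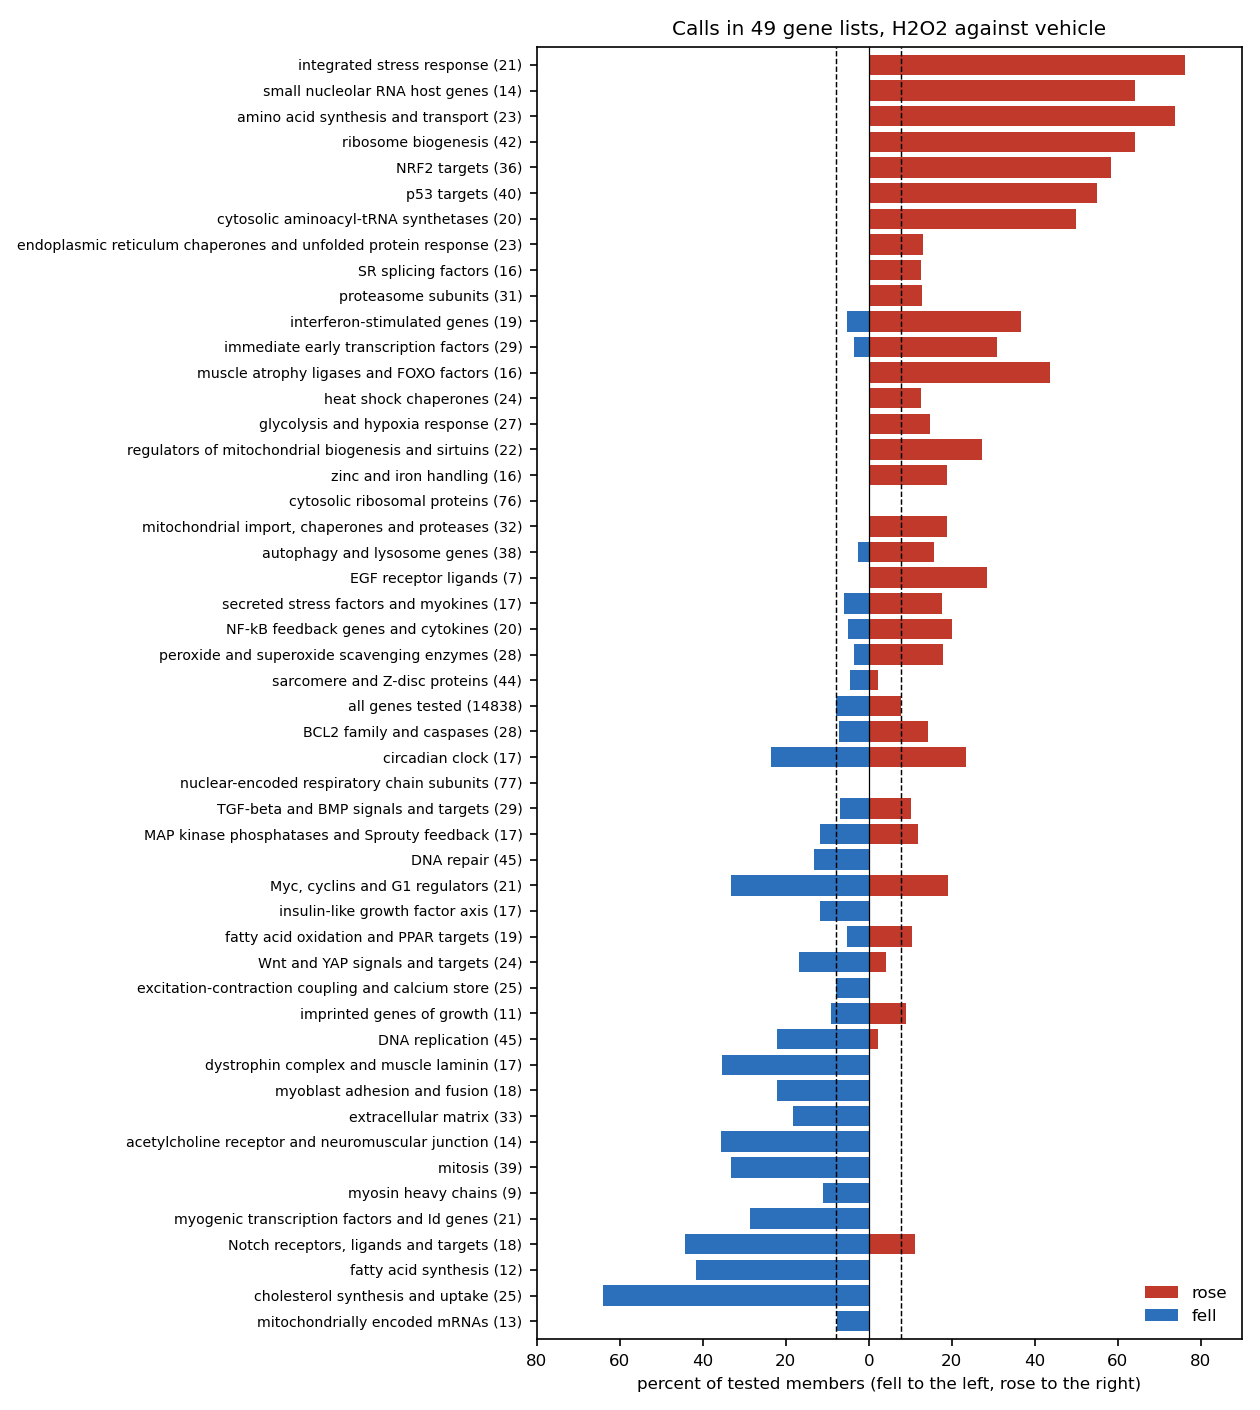
Share of the tested members of each of the 49 lists that rose (red, to the right) or fell (blue, to the left), in percent on the x axis, ordered by the median log2 fold change of the list, with the number tested beside each name. Dashed lines mark the 7.81% and 7.84% of all genes that rose and fell.

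The integrated stress response rose as a group: 16 of 21 tested members rose and 0 fell (76.2% against 7.81% of all genes), with a median log2 fold change of 1.57 against -0.056 over all genes. Gdf15, Atf3 and Trib3, given above, led it. The feedback phosphatase subunit Ppp1r15a (GADD34), which restores translation, stood at 35.9, 46.5 and 46.8 CPM with vehicle and 215, 207 and 236 CPM with H2O2 (log2 fold change 2.35, SE 0.15, adjusted p = 1.14e-05 from edgeR). Vldlr, a lipoprotein receptor that ATF4 induces, stood at 11.98, 8.78 and 8.56 CPM with vehicle and 54.2, 43.9 and 46.3 CPM with H2O2 (log2 fold change 2.30, SE 0.17, adjusted p = 2.48e-05 from edgeR). In both genes the groups were separate. Chac1, which degrades glutathione, changed by 2.06 (SE 0.19), the death-linked factor Ddit3 (CHOP) by 2.63 (SE 0.22), and the leucine sensor Sesn2 by 2.59 (SE 0.25). Atf4 itself stood at 225, 463 and 443 CPM with vehicle and 959.7, 1140.2 and 993 CPM with H2O2 (log2 fold change 1.45, SE 0.24, adjusted p = 0.00278 from edgeR). The chromatin factor Nupr1 (1.81), the hormone genes Stc2 (1.57) and Fgf21 (0.86), and Ddit4 (1.11), an inhibitor of mTORC1, rose less. None of the eIF2 kinase genes Eif2ak1, Eif2ak2, Eif2ak3 and Eif2ak4 passed the test, with values of 0.00, 0.36, 0.08 and 0.24.

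Promoter windows of RefSeq (assembly GRCm38.p6, 250 bases before to 50 bases after each start site, 5′ to 3′ on the gene's strand) were searched on both strands for the ATF4 element TGATGNAA. It occurred in 3.97% of 32851 windows and in the windows of 2.72% of the tested genes that have one. Of the 15 members of the list that rose and had a window, 6 (40.0%) held it, and of all genes that rose 3.85% did. Among these 6, those with the largest rises, Atf3, Trib3 and Vldlr, are shown, with the match in capitals. Gdf15, Ddit3, Sesn2 and Ppp1r15a rose more than Vldlr and are not shown.
Atf3 (chr1:191183284-191183583, minus strand): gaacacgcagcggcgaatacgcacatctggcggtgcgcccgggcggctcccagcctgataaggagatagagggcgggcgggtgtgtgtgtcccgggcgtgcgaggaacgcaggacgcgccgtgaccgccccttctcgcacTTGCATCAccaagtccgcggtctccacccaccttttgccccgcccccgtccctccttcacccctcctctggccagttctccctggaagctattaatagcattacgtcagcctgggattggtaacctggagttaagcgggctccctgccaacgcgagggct
Trib3 (chr2:152344011-152344310, minus strand): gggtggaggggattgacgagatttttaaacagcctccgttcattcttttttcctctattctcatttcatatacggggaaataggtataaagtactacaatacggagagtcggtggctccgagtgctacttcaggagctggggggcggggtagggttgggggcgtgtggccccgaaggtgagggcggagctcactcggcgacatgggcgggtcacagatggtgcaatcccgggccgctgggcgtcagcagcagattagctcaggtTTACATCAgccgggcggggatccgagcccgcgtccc
Vldlr (chr19:27216770-27217069, plus strand): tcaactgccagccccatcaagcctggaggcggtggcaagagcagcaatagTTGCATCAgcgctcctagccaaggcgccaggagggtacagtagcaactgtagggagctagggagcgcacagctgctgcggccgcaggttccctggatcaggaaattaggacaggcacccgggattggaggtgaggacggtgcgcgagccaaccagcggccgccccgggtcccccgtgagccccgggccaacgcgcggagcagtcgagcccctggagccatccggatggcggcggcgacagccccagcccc
The match starts 110 bases before the start site in Atf3 and 200 bases before it in Vldlr, and 14 bases after it in Trib3. Each reads on the reverse strand of the printed sequence. A match describes letters in a window and was not tested as a binding site.

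Genes that supply amino acids and charge tRNAs, many of them ATF4 targets, rose with them. Of 23 genes of amino acid synthesis and transport, 17 rose and 0 fell (73.9%, median 1.07). Slc3a2, the shared heavy chain of several amino acid exchangers, stood at 202, 173 and 187 CPM with vehicle and 594, 590.2 and 739 CPM with H2O2 (log2 fold change 1.77, SE 0.14, adjusted p = 5.96e-05 from edgeR). Slc7a1, the cationic amino acid transporter, stood at 76.7, 91.2 and 91.8 CPM with vehicle and 236, 297 and 309 CPM with H2O2 (log2 fold change 1.70, SE 0.16, adjusted p = 0.000138 from edgeR). Its relatives Slc7a5 (1.304) and Slc7a3 (1.98) rose too, the latter from under 0.5 CPM. The cystine transporter gene Slc7a11, also an NRF2 target, stood at a value of 0.98 (SE 0.36) and missed the threshold (adjusted p = 0.0949 from edgeR). Serine synthesis was represented by Psph (1.86) and Psat1 (0.74), the mitochondrial one-carbon path by Aldh1l2 (1.10), Mthfd1l (1.42) and Shmt2 (0.87), and proline synthesis by Aldh18a1 (1.17) and Pycr1 (0.65). Asns, which makes asparagine, stood at 61.9, 157 and 115 CPM with vehicle and 254, 404 and 304 CPM with H2O2 (log2 fold change 1.53, SE 0.30, adjusted p = 0.00678 from edgeR), and its groups, though separate, spread widely. Of 20 cytosolic aminoacyl-tRNA synthetases, 10 rose (50.0%), led by Sars (1.302 (SE 0.20)), Wars (0.87 (SE 0.16)) and Tars (1.17 (SE 0.22)). Without H2O2 replicate 1 or without H2O2 replicate 3, 6 of the synthetases rose, and 3 with only the 6 libraries compared in the fit. The synthetases of glutamine and methionine, Qars (0.17) and Mars (0.04), did not pass.

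NRF2 targets held 21 rises and 0 falls among 36 tested genes (58.3%, median 0.97). Srxn1, which repairs overoxidised peroxiredoxins, stood at 22.4, 26.2 and 28.5 CPM with vehicle and 154, 153 and 166 CPM with H2O2 (log2 fold change 2.62, SE 0.13, adjusted p = 3.06e-06 from edgeR). Gclm and Gclc, the subunits of the enzyme that limits glutathione synthesis, changed by 2.03 (SE 0.12) and 1.40 (SE 0.16). Txnrd1, the cytosolic thioredoxin reductase, stood at 128, 149 and 113 CPM with vehicle and 514, 579 and 669 CPM with H2O2 (log2 fold change 2.18, SE 0.17, adjusted p = 5.26e-05 from edgeR). The replicates of Srxn1 and Txnrd1 stayed close within each group, while those of Nqo1, a quinone reductase, spread widely at 0.998, 4.08 and 5.89 CPM with vehicle and 12.4, 19.3 and 14.5 CPM with H2O2 (log2 fold change 2.05, SE 0.53, adjusted p = 0.0235 from edgeR), and it did not pass without H2O2 replicate 2 or 3 or vehicle replicate 2 (adjusted p up to 0.0765 from edgeR). The pentose phosphate enzymes that make NADPH also rose, with Pgd at 1.57 (SE 0.14), G6pdx at 0.78 (SE 0.17) and Tkt at 0.63 (SE 0.14). Osgin1 (1.70), the export pumps Abcc1 (1.06) and Abcc4 (1.14), and the NRF2 partner Mafg (1.20) rose. Nfe2l2, the gene of NRF2, stood at 71.9, 166 and 169.7 CPM with vehicle and 209, 352 and 307 CPM with H2O2 (log2 fold change 1.09, SE 0.30, adjusted p = 0.0338 from edgeR), a call lost without H2O2 replicate 2 or 3 or any 1 gRc+H2O2 library (adjusted p up to 0.121 from edgeR), while its inhibitor Keap1 had a value of 0.18 and did not pass.

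The antioxidant response element TGACNNNGC, the core to which NRF2 binds with small MAF proteins, occurred in 12.4% of all windows and in those of 16.9% of the tested genes. Of the 16 NRF2 targets that rose and had a window, 9 (56.2%) held it, and of all genes that rose 19.4% did. The windows of the 3 with the largest rises among these 9 are shown, with the match in capitals. Gsta4, Gsta1 and Hmox1 rose more and are not shown.
Srxn1 (chr2:152105274-152105573, plus strand): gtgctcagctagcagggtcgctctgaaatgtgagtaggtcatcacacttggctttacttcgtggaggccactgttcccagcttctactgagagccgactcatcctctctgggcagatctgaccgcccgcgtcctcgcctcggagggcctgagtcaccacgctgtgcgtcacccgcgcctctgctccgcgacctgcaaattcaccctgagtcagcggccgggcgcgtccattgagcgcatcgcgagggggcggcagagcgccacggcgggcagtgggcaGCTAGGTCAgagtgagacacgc
Txnrd1 (chr10:82858956-82859255, plus strand): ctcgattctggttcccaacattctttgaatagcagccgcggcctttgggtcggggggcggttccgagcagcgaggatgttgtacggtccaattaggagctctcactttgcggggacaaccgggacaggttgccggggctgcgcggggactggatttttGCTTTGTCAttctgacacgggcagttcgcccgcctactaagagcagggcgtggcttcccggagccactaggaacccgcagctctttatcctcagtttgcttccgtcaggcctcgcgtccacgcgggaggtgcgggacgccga
Gclm (chr3:122245307-122245606, plus strand): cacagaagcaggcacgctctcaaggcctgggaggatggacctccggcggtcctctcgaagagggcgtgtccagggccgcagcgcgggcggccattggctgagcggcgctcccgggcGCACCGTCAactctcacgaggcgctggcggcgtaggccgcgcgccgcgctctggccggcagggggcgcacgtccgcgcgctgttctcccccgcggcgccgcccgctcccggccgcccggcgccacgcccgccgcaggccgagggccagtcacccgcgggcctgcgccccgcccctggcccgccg
The match starts 28 bases after the start site in Srxn1, 92 bases before it in Txnrd1 and 134 bases before it in Gclm, and lies on the reverse strand of each.

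Enzymes that remove peroxide directly were also listed. Of 28 scavenging enzymes and their partners, 5 rose and 1 fell (17.9% and 3.57% against 7.81% and 7.84%), or 5 fell without vehicle replicate 2. Besides Srxn1 and Txnrd1, the risen members were glutathione reductase (Gsr, 0.84) and the peroxiredoxins Prdx1 (0.75) and Prdx6 (1.09), and glutaredoxin (Glrx) fell by 0.91 on the log2 scale. Prdx6 stood at 273, 221 and 169 CPM with vehicle and 524, 444 and 441 CPM with H2O2 (log2 fold change 1.09, SE 0.23, adjusted p = 0.00990 from edgeR). Catalase (Cat) had a value of 0.25 (SE 0.31), the superoxide dismutases Sod1 and Sod2 had 0.74 (SE 0.30) and 0.20 (SE 0.25), and the glutathione peroxidases Gpx1 and Gpx4 had 0.31 (SE 0.26) and 0.05 (SE 0.22). Of 16 genes of zinc and iron handling, Hmox1, the zinc exporter Slc30a1 (1.17) and the metallothionein Mt1 rose (18.8% against 7.81% of all genes). Mt1 stood at 92.2, 281 and 237 CPM with vehicle and 454, 852 and 678 CPM with H2O2 (log2 fold change 1.70, SE 0.38, adjusted p = 0.0126 from edgeR), with vehicle replicate 1 lowest and an adjusted p of 0.0515 without H2O2 replicate 2, and Mt2 had a value of 0.49 that did not pass.

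Of 40 p53 targets tested, 22 rose and 0 fell (55.0%, median 0.93). Plk2, a kinase of the centrosome cycle, stood at 131, 119 and 118 CPM with vehicle and 436, 427 and 453 CPM with H2O2 (log2 fold change 1.84, SE 0.14, adjusted p = 3.68e-05 from edgeR). Mdm2, the ligase that degrades p53, stood at 188, 180.2 and 111 CPM with vehicle and 692, 673 and 692 CPM with H2O2 (log2 fold change 2.10, SE 0.26, adjusted p = 0.000607 from edgeR), and its vehicle replicate 3 lay below the other vehicle libraries. The non-coding gene Pvt1 (2.11), the RNA-binding protein Zmat3 (1.66), the nuclease Aen (1.303), Ccng1 (1.37), the death receptor Tnfrsf10b (1.22) and the DNA polymerase Polk (1.46) rose. Cdkn1a, which encodes the cell cycle inhibitor p21, was already high and did not pass the test, at 2512, 1867 and 1778 CPM with vehicle and 2001, 2238 and 2621 CPM with H2O2 (log2 fold change 0.16, SE 0.19, adjusted p = 0.628 from edgeR). The vehicle and H2O2 libraries of Cdkn1a overlapped. Of 28 BCL2 family members, caspases and partners, 4 rose (14.3%, or 2 genes without H2O2 replicate 3) and 2 fell (7.14%), against 7.81% and 7.84% of all genes. The death promoters Bcl2l11 (1.72), Bbc3 (1.50) and Bid (0.41) and the apoptosome gene Apaf1 (0.97) rose, and the survival gene Bcl2 (-1.25) and the death promoter Bmf (-1.13) fell. Bid lost its call for 10 of the 12 libraries left out in turn (adjusted p up to 0.168 from edgeR). The p53 half-site pair occurred in 33.3% of the 18 risen targets with a window, in 35.5% of the 31 targets with a window whether risen or not, in 8.96% of all genes that rose and in 9.80% of tested genes.

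Of 29 immediate early transcription factors tested, 9 rose and 1 fell. Besides Atf3 and Fosl1 these were Myc, the small MAF gene Maff (1.48), the orphan receptors Nr4a1 (1.11) and Nr4a3 (1.19), Fosb (0.77), Klf6 (0.56) and Btg2 (0.51), while Egr2 fell by 0.54. Without H2O2 replicate 2, H2O2 replicate 3 or vehicle replicate 2, 5 rose, and 3 fell without vehicle replicate 1 or without gRc replicate 3. Myc stood at 19.6, 36.7 and 40.6 CPM with vehicle and 109, 144 and 132 CPM with H2O2 (log2 fold change 1.99, SE 0.26, adjusted p = 0.000799 from edgeR). Values for Fos (0.24), Jun (-0.04) and Junb (0.04) did not pass. Of 17 feedback genes of receptor signalling, the MAP kinase phosphatases Dusp4 (1.47) and Dusp5 (0.88) rose and the receptor inhibitors Spry1 and Spry2 (-0.65) fell, with 1 fall left without any 1 H2O2 library or without vehicle replicate 2 or 3. These are 11.8% in each direction, against 7.81% and 7.84% of all genes. Spry1 stood at 27.7, 28.9 and 31.6 CPM with vehicle and 8.90, 9.29 and 7.90 CPM with H2O2 (log2 fold change -1.76, SE 0.14, adjusted p = 3.80e-05 from edgeR), with little spread in either group. Of 7 EGF receptor ligands, amphiregulin (Areg) and epiregulin (Ereg) rose (28.6% against 7.81% of all genes). Areg stood at 0.666, 1.21 and 0.535 CPM with vehicle and 6.39, 6.44 and 7.28 CPM with H2O2 (log2 fold change 3.04, SE 0.32, adjusted p = 0.000243 from edgeR), and Ereg changed by 1.78 (SE 0.47), and 1 of the ligands rose without H2O2 replicate 2 or 3 or vehicle replicate 2. Of 20 genes of NF-kB feedback and cytokines, the prostaglandin synthase Ptgs2 (2.49 (SE 0.33)), Relb (1.05), Nfkbiz (1.21) and the cytokine gene Csf1 (0.66) rose and the adhesion gene Vcam1 fell by 0.89. Of 19 interferon-stimulated genes, 7 rose (36.8% against 7.81% of all genes) and Ifit2 fell by 0.82 (5.26% against 7.84%). The risen members were low: Irf9 stood at 9.43, 10.9 and 10.9 CPM with vehicle and 19.4, 21.8 and 21.3 CPM with H2O2 (log2 fold change 1.002, SE 0.13, adjusted p = 0.000623 from edgeR), and Isg15, Irf7, Mx2, Oasl2, Usp18 and Ifit1 stayed under 8 CPM in every library.

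Genes that build ribosomes formed the largest group of rises in the lists. Of 42 ribosome biogenesis factors, 27 rose and 0 fell (64.3%, median 1.02). Utp20 and Heatr1, components of the small-subunit processome, changed by 1.03 (SE 0.11) and 1.11 (SE 0.12). Rrp1b, a nucleolar protein, stood at 28.8, 29.2 and 29.2 CPM with vehicle and 65.7, 60.4 and 66.3 CPM with H2O2 (log2 fold change 1.14, SE 0.13, adjusted p = 0.000325 from edgeR). The snoRNP core genes Nop56 (1.39), Nop58 (1.42) and Dkc1 (1.18), the nucleolar GTPase Gnl3 (1.55), Wdr43 (1.52) and the RNA polymerase I subunits Polr1e (1.01) and Polr1b (0.65) rose. Of 14 host genes of small nucleolar RNAs, 9 rose (64.3%, median 1.27). Gas5 stood at 14.8, 24.5 and 16.4 CPM with vehicle and 52.8, 63.9 and 62.8 CPM with H2O2 (log2 fold change 1.69, SE 0.25, adjusted p = 0.00165 from edgeR), and Zfas1 and Snhg12 changed by 1.60 (SE 0.25) and 1.38 (SE 0.17). These groups did not overlap in any of the genes named. The spliced host transcripts of several such genes are known to be degraded when they are translated. By contrast, 0 of 76 cytosolic ribosomal protein genes passed, with a median of 0.19. Of 16 SR splicing factors and their kinases, Srsf3 (0.61) and Srsf4 (0.56) rose (12.5% of the list), but 0 rose without H2O2 replicate 1 or 2 and 1 without H2O2 replicate 3, gRc replicate 1 or any 1 gRc+H2O2 library. Genes whose symbols begin with Eif were grouped after values were seen: 14 of 54 rose (25.9% against 7.81% of all genes) and 0 fell, among them Eif2s2 (1.10), Eif5 (0.93) and the translation inhibitor Eif4ebp1 (1.24).

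Of 24 heat shock chaperones, 3 rose, which is 12.5% against 7.81% of all genes (Dnajb4 at 0.73, the mitochondrial Hspd1 at 1.31 and Hspb8 at 1.07), and the inducible Hspa1a and Hspa1b had values of 0.05 and -0.11 that did not pass. Of 23 genes of the endoplasmic reticulum response 3 rose, or 6 without vehicle replicate 1, 5 without gRc replicate 3 and 5 without vehicle replicates 1 and 3 and gRc replicate 3: the sensors Ern1 (0.78) and Atf6 (0.68) and Herpud1 (0.83), while the chaperone Hspa5 (BiP) had 1.27 (SE 0.45) and did not pass. Ern1 stood at 50.2, 51.6 and 48.4 CPM with vehicle and 88.1, 81.9 and 87.7 CPM with H2O2 (log2 fold change 0.78, SE 0.10, adjusted p = 0.000891 from edgeR), with a small spread in both groups. Of 31 proteasome subunits 4 rose (12.9% against 7.81% of all genes), led by Psmd11 (0.96 (SE 0.14)), and the other 27 did not pass. With 1 library left out, the count of rises was 1 or 2 for 9 of the 12 libraries, every H2O2 library and vehicle replicates 1 and 3 among them. Of 38 autophagy and lysosome genes, 6 rose and 1 fell (15.8% and 2.63% against 7.81% and 7.84%), and 0 fell without any 1 H2O2 or vehicle library. Without H2O2 replicate 1 or vehicle replicate 3 alone 1 rose, without H2O2 replicate 2 3 rose, and without H2O2 replicate 3 or vehicle replicate 2 2 rose. Beside Sqstm1 the risen members included Gabarapl1 (1.02), Wipi2 (0.88), Atg14 (0.67) and the kinase Ulk1 (0.60). The mitophagy kinase gene Pink1 had a value of -0.15 that did not pass.

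Of the transcripts of the mitochondrial genome, both rRNAs rose, while the summed messenger RNAs overlapped between the groups. The messenger RNAs of its 13 protein genes took 0.0576%, 0.624% and 4.30% of counts with vehicle and 0.0823%, 0.167% and 0.0692% with H2O2, so the groups overlapped and vehicle replicate 3 held most of the difference (exact permutation test, 2-sided p = 0.4, where 3 against 3 libraries cannot go below 0.1). Only mt-Nd6, the complex I gene transcribed from the light strand, passed the test among the 13, at 71.5, 292 and 580.2 CPM with vehicle and 15.7, 37.6 and 18.5 CPM with H2O2 (log2 fold change -3.71, SE 0.78, adjusted p = 0.00934 from edgeR), and the others had values from -5.86 (mt-Nd3) to -2.87 (mt-Atp8) that did not pass. Without vehicle replicate 1, 11 of the 13 fell, and without gRc replicate 3 alone 5 fell. Both ribosomal RNAs passed the test as rises. mt-Rnr1, the small mitochondrial rRNA, stood at 41.5, 211 and 569 CPM with vehicle and 2861, 7089.6 and 3307 CPM with H2O2 (log2 fold change 4.01, SE 0.92, adjusted p = 0.0139 from edgeR), with an adjusted p of 0.052 without vehicle replicate 2, and mt-Rnr2, the large one, stood at 414, 1071 and 1538 CPM with vehicle and 4661, 12345 and 6685 CPM with H2O2 (log2 fold change 2.97, SE 0.60, adjusted p = 0.00772 from edgeR). Every H2O2 library lay above every vehicle library for both rRNAs, which took 0.133% ± 0.0898 of counts with vehicle and 1.20% ± 0.647 with H2O2 (SD, n = 3 each; exact permutation test, 2-sided p = 0.1, the smallest possible). Libraries were made from poly(A)-selected RNA, in which mitochondrial rRNAs are caught only in part.

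Of 77 nuclear-encoded subunits of the respiratory chain tested, 0 passed, with a median of -0.15 and values from -1.78 to 0.49. Of 32 genes of mitochondrial import, chaperones and proteases, 6 rose and 0 fell (18.8% rose, against 7.81% of all genes). The small import chaperone Timm8a1 stood at 14.9, 14.1 and 15.7 CPM with vehicle and 34.5, 35.9 and 32.0 CPM with H2O2 (log2 fold change 1.19, SE 0.13, adjusted p = 0.000254 from edgeR), the protease Afg3l2 changed by 1.03 (SE 0.14), and the matrix chaperone Hspd1 stood at 294, 331 and 219 CPM with vehicle and 752, 618 and 723 CPM with H2O2 (log2 fold change 1.31, SE 0.26, adjusted p = 0.00751 from edgeR). Of 22 regulators of mitochondrial biogenesis and sirtuins, 6 rose (27.3% against 7.81% of all genes) and 0 fell, or 3 rose without H2O2 replicate 2. Twnk, the mitochondrial DNA helicase, stood at 20.5, 31.3 and 21.9 CPM with vehicle and 59.6, 61.1 and 59.1 CPM with H2O2 (log2 fold change 1.29, SE 0.18, adjusted p = 0.00130 from edgeR). Tfam, which packages mitochondrial DNA, changed by 0.73 (SE 0.16), Nrf1 by 0.60 (SE 0.14), Pprc1 by 0.80 (SE 0.13) and Sirt1 by 1.09 (SE 0.28). The coactivator gene Ppargc1a (PGC-1alpha) was barely detected, at 0.388, 0.934 and 1.43 CPM with vehicle and 0.280, 0.678 and 0.414 CPM with H2O2 (log2 fold change -0.999, SE 0.45, adjusted p = 0.163 from edgeR), and its groups overlapped.

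Sterol synthesis fell as a group. Of 25 genes of cholesterol synthesis and uptake, 0 rose and 16 fell (64.0% against 7.84% of all genes, median -0.80). Lss, which closes the sterol rings, stood at 123, 86.1 and 84.9 CPM with vehicle and 40.9, 33.8 and 37.1 CPM with H2O2 (log2 fold change -1.39, SE 0.16, adjusted p = 0.000318 from edgeR). Acat2, which makes acetoacetyl-CoA at the head of the path, stood at 78.3, 67.4 and 60.1 CPM with vehicle and 25.4, 23.4 and 27.2 CPM with H2O2 (log2 fold change -1.44, SE 0.15, adjusted p = 0.000210 from edgeR). Cyp51, the lanosterol demethylase, stood at 265, 174 and 188 CPM with vehicle and 95.3, 98.8 and 84.3 CPM with H2O2 (log2 fold change -1.17, SE 0.17, adjusted p = 0.00139 from edgeR). In each the groups were separate, with vehicle replicate 1 the highest. The synthase gene Hmgcs1 changed by -0.78 (SE 0.18) and the sterol sensor Insig1 by -0.88 (SE 0.14). The SREBP genes Srebf1 (-0.51) and Srebf2 (-0.46) did not pass. Of 12 genes of fatty acid synthesis, 5 fell (41.7% against 7.84% of all genes) and 0 rose: the desaturases Fads2 (-0.998), Scd1 (-0.77) and Scd2, the elongase Elovl6 (-1.62) and Acly (-0.39), while Fasn had -0.63 (SE 0.25) and did not pass. Leaving out any 1 of the 6 libraries with H2O2 left 2 or 3 of the 5 falls. Of 19 genes of fatty acid oxidation and PPAR targets, 2 rose and 1 fell, with a median of -0.26. These are 10.5% and 5.26% of the list, near the 7.81% and 7.84% of all genes. Acot2, a mitochondrial acyl-CoA thioesterase, rose most, at 15.9, 10.4 and 8.60 CPM with vehicle and 79.2, 60.9 and 73.1 CPM with H2O2 (log2 fold change 2.62, SE 0.22, adjusted p = 7.33e-05 from edgeR). Of 27 genes of glycolysis and the hypoxia response, 4 rose (14.8% against 7.81% of all genes) and 0 fell. Ndrg1, a stress gene, stood at 75.7, 81.3 and 79.6 CPM with vehicle and 273, 290.4 and 253 CPM with H2O2 (log2 fold change 1.79, SE 0.11, adjusted p = 1.09e-05 from edgeR). The glucose transporter Slc2a1 (1.57), hexokinase Hk2 (1.77) and the vessel growth factor Vegfa (1.46) were the others, and the glycolytic enzymes Pkm (0.30), Ldha (-0.15) and Gapdh (-0.11) did not pass.

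Cell cycle genes fell in part. Of 39 mitosis genes 13 fell and 0 rose (33.3% fell). Of 45 DNA replication genes 10 fell (22.2%) and 1 rose (2.22%), and of 45 DNA repair genes 6 fell (13.3%) and 0 rose. Over all genes 7.84% fell and 7.81% rose. With only the 6 libraries compared in the fit, 1 mitosis gene, 4 replication genes and 1 repair gene fell. Mitosis genes that fell numbered 7, 5 and 4 without H2O2 replicates 1, 2 and 3, 6 without vehicle replicate 2 and 20 without vehicle replicate 1. Repair genes that fell numbered 2, 1 and 2 without H2O2 replicates 1, 2 and 3, 2 without vehicle replicate 2 and 3 without gRc+H2O2 replicate 2. The cyclin gene Ccna2 stood at 62.1, 52.2 and 50.5 CPM with vehicle and 31.6, 28.7 and 31.4 CPM with H2O2 (log2 fold change -0.85, SE 0.14, adjusted p = 0.00337 from edgeR). Ccne1, which drives entry into S phase, stood at 11.2, 7.54 and 10.0 CPM with vehicle and 3.45, 3.02 and 2.98 CPM with H2O2 (log2 fold change -1.60, SE 0.18, adjusted p = 0.000333 from edgeR). In both the groups were separate. Thymidine kinase (Tk1, -1.33), the maintenance methylation factor Uhrf1 (-1.08), the spindle motor Kif11 (-0.61) and the repair glycosylase Neil3 (-1.73) fell, and the helicase subunit Mcm7 rose (0.95). Mki67 had -0.77 (SE 0.35) and Top2a -0.09 (SE 0.18), and neither passed. Summed over 4 cycling markers, the level ran from 170.6 to 235.6 CPM with vehicle and from 154.6 to 175.8 CPM with H2O2. Among 21 regulators of G1, 4 rose and 7 fell, and 4, 3 and 3 fell without H2O2 replicates 1, 2 and 3. The D cyclins went different ways, with Ccnd1 at 0.64 and Ccnd2 at 1.26 and Ccnd3, the cyclin of differentiated muscle, at 424, 263 and 552 CPM with vehicle and 214, 156 and 175 CPM with H2O2 (log2 fold change -1.19, SE 0.30, adjusted p = 0.0209 from edgeR), not passing without H2O2 replicate 2 or 3 or vehicle replicate 3 (adjusted p up to 0.0811 from edgeR). The MAX-binding antagonists of MYC, Mxd1 (-1.01), Mxd3 and Mxd4 (-0.96), fell. Replication-dependent histone genes, whose messages normally lack a poly(A) tail, were grouped after values were seen, and 7 of 26 rose (26.9%) and 0 fell, among them Hist1h1c (1.12 (SE 0.27)).

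Some genes of muscle identity fell. Of 21 myogenic transcription factors and Id genes, 6 fell (28.6% against 7.84% of all genes) and 0 rose, or 3 fell without H2O2 replicate 3 or without vehicle replicate 2. Pax7, the marker of muscle stem cells, stood at 15.0, 20.3 and 23.6 CPM with vehicle and 7.74, 8.14 and 8.52 CPM with H2O2 (log2 fold change -1.27, SE 0.22, adjusted p = 0.00352 from edgeR), and the differentiation inhibitor Id3 changed by -1.66 (SE 0.24). Myod1 stood at 209, 201 and 161 CPM with vehicle and 131, 125 and 145 CPM with H2O2 (log2 fold change -0.51, SE 0.16, adjusted p = 0.0493 from edgeR), close to the threshold and past it for only 3 of the 12 libraries left out in turn (adjusted p up to 0.167 from edgeR), and Myog had -0.02 (SE 0.27) and did not pass. Of 18 genes of adhesion and fusion, 4 fell (22.2% against 7.84% of all genes) and 0 rose, or 6 fell without vehicle replicate 1, and 2 or 1 without H2O2 replicate 1 or 3. Cdon, a cell surface promoter of myogenesis, stood at 334, 409.8 and 457 CPM with vehicle and 123, 142 and 136 CPM with H2O2 (log2 fold change -1.58, SE 0.17, adjusted p = 0.000289 from edgeR), while the fusogens Mymk (-0.39) and Mymx (-0.39) did not pass. Of 44 sarcomere genes, 1 rose (Lmod2, 0.59) and 2 fell (Neb and Cmya5, -0.80), which is 2.27% and 4.55% against 7.81% and 7.84% of all genes. With 1 library left out between 0 (any H2O2 library or vehicle replicate 2) and 7 (vehicle replicate 1) fell.

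Of 9 myosin heavy chain genes only Myh4, a fast adult form, fell (11.1% of the list against 7.84% of all genes), at 343, 327 and 241 CPM with vehicle and 212, 173 and 212 CPM with H2O2 (log2 fold change -0.61, SE 0.18, adjusted p = 0.0464 from edgeR), a call lost for 9 of the 12 libraries left out in turn (adjusted p up to 0.171 from edgeR), and 3 of the 9 genes fell without vehicle replicate 3. The embryonic and perinatal forms Myh3 (-0.53 (SE 0.31)) and Myh8 (-0.37 (SE 0.17)) and the slow form Myh7 (-0.54 (SE 0.29)) did not pass. Of 25 genes of excitation-contraction coupling, the calcium release channel Ryr3 (-1.46 (SE 0.18)) and Cacna2d1 (-0.56) fell, which is 8.0% against 7.84% of all genes. Without vehicle replicate 1 or 3 alone 5 fell, and without H2O2 replicate 3 alone 1 fell. Of 17 genes of the dystrophin complex and muscle laminin, 6 fell (35.3% against 7.84% of all genes), or 5 without vehicle replicate 1 or 3 alone. Dmd, the gene of dystrophin, stood at 10.9, 14.9 and 11.9 CPM with vehicle and 5.73, 4.65 and 4.80 CPM with H2O2 (log2 fold change -1.31, SE 0.19, adjusted p = 0.00133 from edgeR), and Dag1, its membrane partner dystroglycan, at 735, 728 and 813 CPM with vehicle and 420.5, 452 and 444 CPM with H2O2 (log2 fold change -0.79, SE 0.17, adjusted p = 0.0104 from edgeR). The groups did not overlap in either. Of 14 neuromuscular junction genes 5 fell (35.7% against 7.84% of all genes), with the agrin receptor Lrp4 at -0.96 (SE 0.19), but 1 fell without any 1 H2O2 library, and 3 without vehicle replicate 3, gRc replicate 1 or gRc+H2O2 replicate 1 or 2. Of 17 genes of the insulin-like growth factor axis, Igf1 and its receptor Igf1r (-0.46) fell (11.8% against 7.84% of all genes), and 1 fell without any 1 H2O2 library, any 1 gRc+H2O2 library, gRc replicate 2 or vehicle replicate 2.

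Genes of muscle atrophy rose in part: of 16, 7 rose (43.8% against 7.81% of all genes) and 0 fell, or 6 rose and 1 fell without vehicle replicate 1. With 1 library left out, 3 rose without H2O2 replicate 1 or 3 and 4 without vehicle replicate 2 or 3. Fbxo30, a ubiquitin ligase subunit of the atrophy program, stood at 49.0, 51.4 and 39.7 CPM with vehicle and 90.9, 113 and 94.0 CPM with H2O2 (log2 fold change 1.09, SE 0.14, adjusted p = 0.000879 from edgeR). Trim63 (MuRF1), which marks myofibril proteins for degradation, stood at 36.9, 33.4 and 31.3 CPM with vehicle and 51.3, 45.6 and 56.6 CPM with H2O2 (log2 fold change 0.60, SE 0.16, adjusted p = 0.0317 from edgeR), a call lost for 7 of the 12 libraries left out in turn (adjusted p up to 0.149 from edgeR), and every H2O2 library lay above every vehicle library. Its counterpart Fbxo32 (atrogin-1) had -0.07 (SE 0.13) and did not pass. The forkhead factor Foxo3 (0.61), the ligase Trim32 (0.53) and Klf15 (1.91), which stayed under 3 CPM, rose.

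Several Notch and Wnt genes fell. Of 18 Notch receptors, ligands and targets, 8 fell and 2 rose (44.4% and 11.1% against 7.84% and 7.81% of all genes). With 1 library left out, 4 or 5 fell for 9 of the 12 libraries, among them every H2O2 library and vehicle replicate 2. Besides Heyl, the ligand Dll1 stood at 50.2, 27.6 and 22.7 CPM with vehicle and 10.6, 7.22 and 9.31 CPM with H2O2 (log2 fold change -1.89, SE 0.28, adjusted p = 0.00172 from edgeR), and the targets Hes1 (-0.70) and Hey1 (-0.74), the glycosyltransferase Lfng (-1.24) and the ligand Jag2 (-0.80) fell. The ligand Jag1 (0.98 (SE 0.14)) and the DNA-binding partner Rbpj (1.04 (SE 0.25)) rose. Of 24 Wnt and YAP genes, 4 fell and 1 rose (16.7% and 4.17% against 7.84% and 7.81% of all genes). The risen member was the YAP target Ankrd1, at 881, 888 and 808 CPM with vehicle and 1534, 1312 and 1449 CPM with H2O2 (log2 fold change 0.74, SE 0.15, adjusted p = 0.00920 from edgeR). The stem cell receptor Lgr5 (-3.25) and the receptors Fzd1 (-0.54) and Fzd2 (-1.17) were among those that fell. Of 29 TGF-beta and BMP genes, Smad1 (0.54), Smad4 (0.53) and Skil (0.43) rose and Smad9 (-1.87) and Tgfb2 (-0.89) fell, the groups of Tgfb2 overlapping. These are 10.3% and 6.9% of the list, against 7.81% and 7.84% of all genes. Without H2O2 replicate 2 or 3, 0 rose. With 1 library left out, 0 fell without H2O2 replicate 1 and 1 fell without H2O2 replicate 2 or 3, vehicle replicate 2, gRc replicate 1 or 2 or any 1 gRc+H2O2 library.

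Of 33 extracellular matrix genes, 6 fell (18.2% against 7.84% of all genes) and 0 rose. Col12a1, a collagen associated with fibrils, stood at 525, 525 and 540.4 CPM with vehicle and 255, 226 and 240.3 CPM with H2O2 (log2 fold change -1.14, SE 0.14, adjusted p = 0.000461 from edgeR), with little spread in either group. The fibrillar collagens Col1a1 (-0.99 (SE 0.71)) and Col3a1 (-0.62 (SE 0.59)) did not pass, and fibroblast markers varied most between the vehicle libraries, as given above. Guidance and surface families were grouped by symbol after values were seen: 12 of 28 semaphorins and plexins fell and 1 rose (median -0.60), 11 of 32 ADAM and ADAMTS proteases fell and 0 rose (median -0.41), and 7 of 24 integrins fell and 1 rose. Falls made up 42.9%, 34.4% and 29.2% of these families, in that order. Plxna2, a semaphorin receptor, stood at 51.6, 60.1 and 75.3 CPM with vehicle and 23.1, 25.5 and 22.1 CPM with H2O2 (log2 fold change -1.40, SE 0.20, adjusted p = 0.00131 from edgeR), and Adamts5 changed by -1.03 (SE 0.13).

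Clock genes moved both ways, 4 up and 4 down of 17 (23.5% each, against 7.81% and 7.84% of all genes). Rises numbered 2, 2 and 1 without H2O2 replicates 1, 2 and 3. Per3 stood at 26.2, 13.3 and 18.5 CPM with vehicle and 5.59, 4.95 and 4.96 CPM with H2O2 (log2 fold change -1.90, SE 0.25, adjusted p = 0.000819 from edgeR) and Dbp changed by -1.60 (SE 0.31), whereas the repressor Cry2 rose (0.86 (SE 0.20)) and Ciart, another repressor of the clock, stood at 1.89, 2.697 and 3.75 CPM with vehicle and 6.99, 9.02 and 9.72 CPM with H2O2 (log2 fold change 1.62, SE 0.24, adjusted p = 0.00170 from edgeR). Per2 fell too (-0.93), and the core genes Clock (-0.13) and Arntl (0.72) did not pass. Among 11 imprinted growth genes, 1 rose and 1 fell (9.09% each, near the 7.81% and 7.84% of all genes). Mest, the gene that fell, stood at 14.1, 15.1 and 18.3 CPM with vehicle and 5.17, 5.26 and 6.33 CPM with H2O2 (log2 fold change -1.50, SE 0.20, adjusted p = 0.000898 from edgeR). Plagl1 rose from under 0.4 CPM (1.71 (SE 0.46)), a call lost for 5 of the 12 libraries left out in turn (adjusted p up to 0.0923 from edgeR). H19 (-0.04) and Igf2 (-0.23) did not pass.

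The direction of change also differed with the level and length of genes. Among 12968 protein-coding genes with a position, split into quintiles by genomic span, the longest quintile (70.2 to 4430 kb) held 377 falls (14.5%) and 173 rises (6.67%), while the other quintiles held 5.78% to 8.60% falls and 6.78% to 10.5% rises. By average level, the most abundant quintile held 11.1% rises and 4.20% falls, and the second-lowest quintile 4.44% rises and 14.5% falls. Across genes, which are not independent, Spearman's rho with the log2 fold change was 0.241 for level, -0.040 for span and -0.056 for GC content. Dmd and Ryr3, named above, and the laminin gene Lama2 (-0.82) belong to the longest quintile. Of 554 processed pseudogenes tested, 9 rose and 0 fell (1.62% and 0.0% against 7.81% and 7.84% of all genes).

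**Figure D4:**
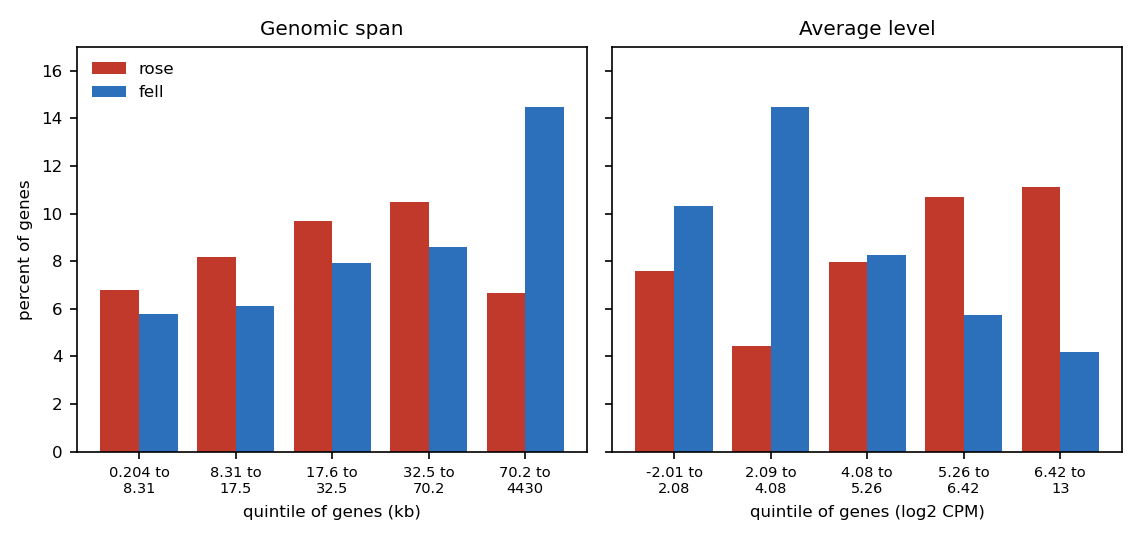
Share of protein-coding genes that rose (red) or fell (blue) with H2O2, in percent (y axis), in quintiles of genomic span (left) and of average level (right), from lowest to highest. The longest quintile has the largest share of falls, 14.5%, and the most abundant quintile the largest share of rises by level, 11.1%.

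The same exposure was also made after gRc, in 6 other libraries. There 1123 genes rose (7.57%) and 1209 fell (8.15%). Of the 1159 genes that rose without gRc, 890 (76.8%) rose with it, which is 79.3% of the genes that rose with gRc, and of the 1164 that fell, 899 (77.2%) fell with it, or 74.4% of those. No gene was called in opposite directions, and 2320 of the 2323 genes had the same sign, against 83.3% of all genes. Both comparisons have their own libraries, but vehicle and gRc libraries of the same number deviated together (correlations across genes of 0.437, 0.267 and 0.846), so the overlap is a description. Gdf15 stood at 6.47, 5.24 and 5.62 CPM with gRc and 90.2, 96.8 and 107 CPM with gRc+H2O2, a log2 fold change of 4.08 with gRc against 4.33 without. Scml4 stood at 29.1, 24.3 and 28.9 CPM with gRc and 4.17, 4.89 and 4.94 CPM with gRc+H2O2, a log2 fold change of -2.55 against -2.62. Values with gRc were likewise close for Atf3 (3.75), Gsta1 (3.68), Lss (-1.49), Heyl (-2.38) and Igf1 (-2.003). The difference between both responses passed edgeR's test for 0 of 14838 genes, with 87 (0.586%) at an unadjusted p under 0.05, and DESeq2 called 1.

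**Figure D5:**
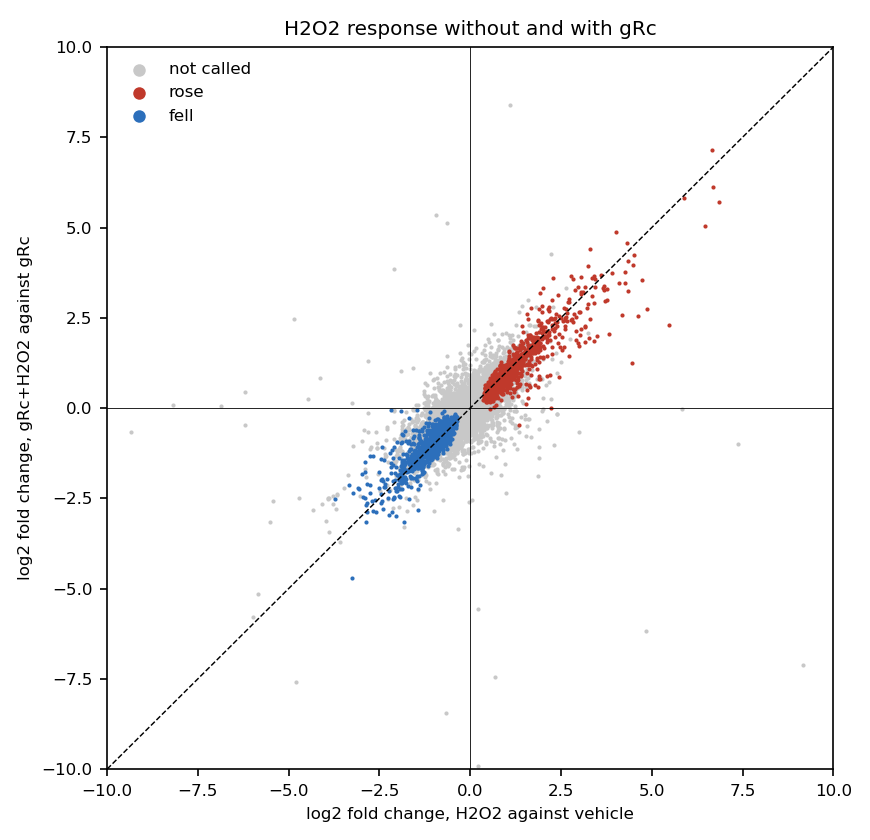
Log2 fold change of H2O2 with gRc (gRc+H2O2 against gRc, y axis) against that without gRc (H2O2 against vehicle, x axis) for the 14838 genes tested, with the 1159 genes that rose without gRc in red, the 1164 that fell in blue and the rest in grey. The dashed line marks equal values, and 2320 of the 2323 coloured genes have the same sign on both axes.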

How the data were processed

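RNA from C2C12 cultures was sequenced in 12 libraries, 3 in each of 4 groups taken from the sample labels, and the 6 vehicle and H2O2 libraries were compared. According to the study's methods and the labels, the authors checked reads with FastQC, trimmed adapters with Trim Galore, aligned each library to GRCm38 with STAR (2.7.3a) and quantified genes with RSEM (1.3.3). The deposited expected counts are estimates in which reads shared between genes are divided among them, and they were rounded to whole numbers. The TPM values and effective lengths that the authors deposited beside them served 1 alternative each, and FPKM, the same estimates in another unit, were not used. The kit keeps strand, but whether counting used it is not given in the sources used here, so a gene and its antisense partner may share reads. A symbol was found for 48349 of 48795 genes.

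Genes were filtered with filterByExpr and scaled by TMM, and 1 mean per group was fitted to all 12 libraries with edgeR's quasi-likelihood test (edgeR 4.0.16, R 4.3.3; biological coefficient of variation 0.295). A standard error was obtained from each log2 fold change and the root of its F statistic. On simulated counts of 14656 genes for H2O2 against vehicle, edgeR found 29 of 100 genes with a 2-fold change and 80 of 100 with a 4-fold change, beside 2 false calls. DESeq2 found 61 and 96 of these, beside 43 false calls over 14838 genes of the same comparison. The changed genes were drawn from those with higher counts only. Simulated libraries varied independently gene by gene, without the shared deviations and GC trends of the real ones. These numbers may therefore not carry over to the real comparison. Alternatives were DESeq2 (1.42.0), limma (3.58.1) on log2(TPM + 0.5), other scaling and filters, GC and length corrections, a block for the replicate number, the 6 libraries alone and each library left out.

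Genes named were the 12 largest rises and falls above an average log2 CPM of 2 without overlap, the 6 called genes with the largest rise and fall in CPM, called list members and the 4 of each list with the smallest p, genes of proteins the study measured and the 3 with the smallest p of the difference between responses; further genes are named as contrasts within a group, and a few genes that meet the rule are not reported here. The members and lists were chosen with earlier results of these data known. The labels do not say that replicates were separate cultures, and p-values therefore reflect only how these libraries vary, possibly for technical reasons.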

Additional observations from a re-analysis of the deposited data

Results flagged for a closer look

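DESeq2, but not edgeR, called the difference between the responses with and without gRc for a single gene. The processed pseudogene Gm7645 on chromosome 2 stood at 0.943, 0.622 and 0.178 CPM with vehicle and 1.12, 0.780 and 0.827 CPM with H2O2, and at 0.899, 1.26 and 0.289 CPM with gRc and 0, 0 and 0 CPM with gRc+H2O2. DESeq2 gave the difference of both responses a log2 value of -7.67 (SE 1.54) with an adjusted p of 0.00966, while edgeR gave -8.12 with an adjusted p of 1. The gene was above 2 CPM in 0 libraries, its reads can be shared with its parent gene, and the test rests on 3 libraries without a count. DESeq2 had 82 genes at an unadjusted p under 0.05. S100a14, a small calcium-binding protein gene, separated the groups in opposite directions, at 0.111, 0.138 and 0.143 CPM with vehicle and 0.373, 0.373 and 0.248 CPM with H2O2 but 0.396, 0.528 and 0.353 CPM with gRc and 0.200, 0.252 and 0.113 CPM with gRc+H2O2. The difference was -2.43 on the log2 scale (unadjusted p = 0.00108 from edgeR) and did not pass after adjustment, and the gene was near the limit of detection. Hist1h2ac had the other of the 3 smallest p-values by edgeR (-3.22, unadjusted p = 0.00105) and did not pass either.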

How the results depend on the processing

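The number of calls moved most when fewer libraries entered the fit. With the 6 libraries alone, 739 genes passed (382 rose, 357 fell), limma on log2(TPM + 0.5) called 1464 (683 rose), and offsets from effective lengths left 754 falls. With 1 library left out, the calls ran from 1267 (without H2O2 replicate 3) to 3108 (without vehicle replicate 1), the rises from 618 to 1553 and the falls from 649 to 1555. Without vehicle replicate 3 and gRc replicate 3, chosen after seeing the data, 1305 genes rose and 1486 fell. The share of rises, 49.9%, was 35.8% with upper-quartile scaling and stayed between 46.2% and 56.5% otherwise. No called gene changed direction under other scaling, DESeq2, the GC correction or the block. With the 6 libraries alone 2267 of the 2323 kept theirs, where a gene that the filter removed was not counted as keeping it. DESeq2 called 1 gene for the difference between the responses with and without gRc, and each other alternative that held gRc libraries 0. The mean share of counts in mitochondrial mRNAs was -1.55 percentage points (H2O2 minus vehicle), between -2.35 and -0.234 with 1 library left out. Of 229 named genes that passed, 159 passed with each of the 12 libraries left out in turn and 70 lost the call at least once. None of them changed direction under any of these settings.

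The replicate numbers matched the vehicle and H2O2 libraries only in part: deviations of vehicle and H2O2 libraries with the same number correlated at 0.419, 0.285 and -0.260 across genes. Vehicle replicates 1 and 2 each correlated best with the H2O2 library of the same number, but vehicle replicate 3 correlated best with H2O2 replicate 2 (0.494). The replicate block called 1177 rises and 1128 falls, of which 2126 were shared, and 1341 and 1034 when combined with the GC correction. The files hold 3 libraries a group, and changes of 2-fold were often missed in the simulated counts.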

Other observations

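Further gene families were grouped by symbol after values were seen, and their counts are a description. Of 36 kinesins, the motors that move along microtubules, 10 fell and 1 rose (27.8% and 2.78%), and of 46 G protein-coupled receptors named Gpr or Adgr 12 fell and 4 rose (26.1% and 8.7%). Of 32 potassium channel genes, 8 fell and 2 rose (25.0% and 6.25%). RNA polymerase subunits moved towards rises, with 7 of 29 up (24.1%) and 0 down, while of 80 mitochondrial ribosomal proteins 4 rose and 1 fell (5.0% and 1.25%). Among 315 numbered zinc finger genes 19 rose and 8 fell (6.03% and 2.54%). Over all genes, 7.81% rose and 7.84% fell. Of 17 secreted stress factors and myokines, Gdf15, Fgf21 and Vegfa rose (17.6%) and Il15, a cytokine made by muscle, fell (5.88%), at 0.277, 0.415 and 1.64 CPM with vehicle and 0.233, 0.136 and 0.165 CPM with H2O2 (log2 fold change -2.15, SE 0.64, adjusted p = 0.0447 from edgeR), close to the threshold and with vehicle replicate 3 far above the others.

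Among genes without a protein product, 15 of 291 long intergenic RNAs rose and 16 fell (5.15% and 5.5%). Of 356 antisense genes 8 rose and 15 fell (2.25% and 4.21%), and of 210 processed transcripts 18 rose and 7 fell (8.57% and 3.33%). Over all genes the shares were 7.81% and 7.84%. The AP-1 letters TGANTCA, searched on both strands, occurred in 7.81% of the promoter windows and in 0 of the 7 risen immediate early genes with a window. The metal response letters TGCNCNC occurred in 51.0% of windows and the heat shock element in 0.603%, too often and too rarely to describe those lists by them.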
